A study of Mus musculus with 8 samples.

Results

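Mural cells, the pericytes of capillaries and the smooth muscle cells of arterioles and arteries, were followed in the cerebellum through 10 genes that mark them. Of these, 5 mark pericytes of the brain (*Pdgfrb*, *Rgs5*, *Kcnj8*, *Abcc9* and *Vtn*) and 5 belong to the contractile apparatus of vascular smooth muscle (*Acta2*, *Tagln*, *Myh11*, *Myl9* and *Cnn1*). They were picked by name for their cell type from the 56691 genes of the deposited count table, and all 10 were present and passed the filter on low counts, among 22423 genes tested. The samples were cerebella of 4 *Atm*-WT mice, labelled Control with the genotype ATM +/+, and 4 *Atm*-KO mice, labelled ATM-KO with the genotype ATM -/-. Both genotypes were bred by crossing heterozygotes of the line B6;129S4-Atmtm1Bal/J, in which *Atm* is disrupted in every cell of the body, with wild-type littermates as controls. The authors give an age of 6 months, the labels name no treatment, and blood was flushed from the vessels with saline before the brain was taken. Mice are named here as in the labels, by a number and a letter, which is F for *Atm*-KO mouse 7F and M for the other 7 mice, and each gave 1 library.

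Mural cells wrap the endothelial tube. Pericytes are recruited by platelet-derived growth factor from the endothelium, which acts on the receptor PDGFRB, and they help to keep the blood-brain barrier closed. Smooth muscle cells set the width of arterioles through an actin and myosin apparatus whose genes are switched on by serum response factor (SRF) with its partner myocardin. Ataxia-telangiectasia, which the mice model, takes the second part of its name from dilated small vessels.

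Library totals lay between 65967130 and 88030300 counts, and the 10 genes together took from 0.0157% to 0.0255% of them. *Atm* itself stood at 71.5 ± 10.1 CPM in *Atm*-WT cerebella and at 45.4 ± 4.16 CPM in *Atm*-KO cerebella (SD, n = 4 each, CPM being counts scaled by TMM to a common library size), with every *Atm*-KO mouse below every *Atm*-WT mouse. Markers of granule cells, Purkinje cells, astrocytes and endothelium were all detected, as were those of the adjoining choroid plexus. The genes that define pericytes and mature smooth muscle (*Pdgfrb*, *Kcnj8*, *Abcc9* and *Myh11*) were present in every library.

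The level of each gene was first compared per length, as counts per kilobase of annotated exon, scaled to the same sum in each library (TPM). In *Atm*-WT cerebella *Vtn*, which encodes the matrix and plasma protein vitronectin, stood at 118 ± 5.46 TPM (SD, n = 4 mice), and *Rgs5*, a brake on G protein signalling, at 107 ± 17.6 TPM, with overlapping ranges. The next pair, *Pdgfrb* at 20.3 ± 1.69 TPM and *Acta2* at 19.5 ± 3.64 TPM, overlapped as well and lay below *Rgs5* in every mouse. *Myl9* (12.4 ± 3.38 TPM), *Tagln* (11.7 ± 2.47 TPM), *Abcc9* (11.4 ± 1.23 TPM) and *Myh11* (8.32 ± 1.40 TPM) followed, each with a range that overlapped that of its neighbour in this order. *Kcnj8*, at 4.58 ± 0.361 TPM, was below all of these, and *Cnn1*, at 0.738 ± 0.385 TPM, was lowest by far. With the longest transcript as the length, *Abcc9* moved ahead of *Myl9* and *Tagln*. *Atm*-KO cerebella ran close to the same order, with *Rgs5* ahead of *Vtn* and *Abcc9* ahead of *Tagln*.

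**Figure D1:**
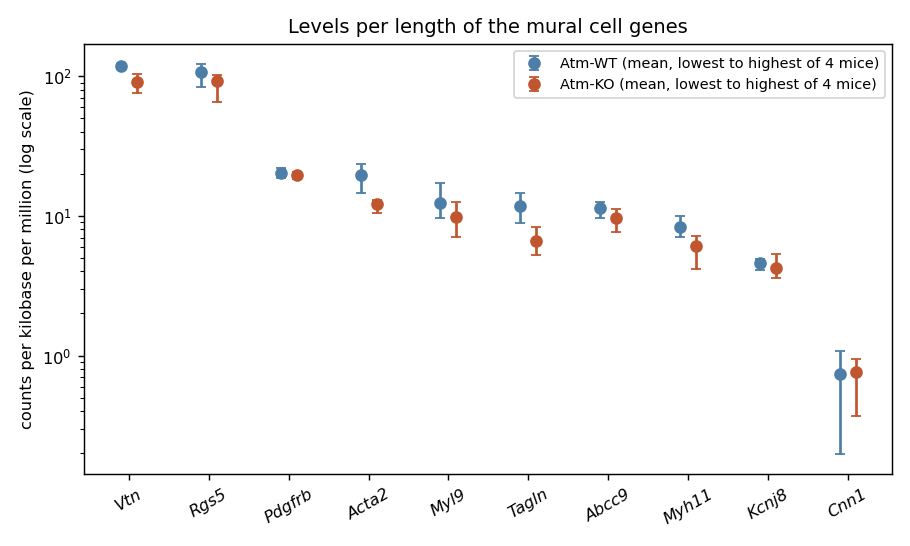
Levels per length of the 10 mural cell genes on a log scale, in TPM computed from exon length, with the mean (point) and the lowest to highest of 4 mice (bar) of each genotype. *Vtn* and *Rgs5* stand near 100 TPM, and *Cnn1* below 1 TPM in the mean of both genotypes.

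Most mural cell genes had lower values in *Atm*-KO cerebella, and the 2 largest differences were in the contractile genes *Tagln* and *Acta2*. By fitted log2 fold change 9 of the 10 were lower, against 53.1% of all genes tested, and the median was −0.34 over the 10 genes, −0.26 over the 5 pericyte genes and −0.50 over the 5 contractile genes, against −0.018 over all genes tested. The first of these was −0.22 without *Atm*-KO mouse 12M and −0.19 with a surrogate variable in the fit, and the pericyte median −0.13 and −0.094. As the genes were chosen with earlier results of these data known, these shares and medians are a description and not a test. In these bulk samples fewer mural cells and less RNA of these genes per cell cannot be told apart. Lists of other cells had medians of −0.60 for choroid plexus, −0.34 for microglia, −0.23 for oligodendrocytes, −0.23 for meningeal fibroblasts, −0.21 for endothelium, −0.20 for astrocytes, −0.09 for Purkinje cells, −0.01 for granule cells and 0.61 for red blood cells, and their part in the difference of the mural genes was not tested. At an adjusted p under 0.05, 0 of the 10 genes were called by the quasi-likelihood test of edgeR (Benjamini-Hochberg adjustment over all genes), where 0.0178% of all genes were, and limma voom also called 0, against 0.0134%. At an adjusted p under 0.1 in edgeR there were 2 (*Vtn* and *Acta2*), against 0.647% of all genes that were lower at this level. At an unadjusted p under 0.05 in edgeR there were 4 (*Vtn*, *Acta2*, *Tagln* and *Myh11*, all lower), against 8.48% of all genes that were lower at this level. DESeq2's Wald test called 3 of the 10 (*Vtn*, *Acta2* and *Tagln*), against 2.44% of all genes called lower by it and 7.49% called in either direction. The same 3 genes were those whose values did not overlap between genotypes, where 5.12% of all genes tested were lower without overlap.

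*Acta2* encodes smooth muscle alpha-actin, the actin of the contractile filaments, and lies on chromosome 19 of GRCm39 from 34217737 to 34232990. It had 11.9, 7.09, 9.87 and 9.89 CPM in *Atm*-WT mice 2M, 7M, 13M and 32M and 6.01, 6.09, 6.20 and 4.94 CPM in *Atm*-KO mice 1M, 7F, 11M and 12M. All *Atm*-KO values lay below the lowest *Atm*-WT value, that of mouse 7M. The means were 9.69 ± 1.98 and 5.81 ± 0.585 CPM, so that *Atm*-KO cerebella held 60.0% of the *Atm*-WT level (log2 fold change −0.74, standard error 0.16, adjusted p = 0.0931 in edgeR and 0.000708 in DESeq2). The gene shares 301 of its 3227 exon bases with *Stambpl1* on the opposite strand. *Stambpl1* itself had 11.9 ± 1.54 and 11.7 ± 1.12 CPM in the 2 genotypes.

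*Tagln* encodes transgelin (SM22), an actin-binding protein of smooth muscle, and lies on chromosome 9 from 45840909 to 45847404, 7.50 Mb from *Atm*. Its values were 4.67, 2.71, 3.28 and 4.15 CPM in the *Atm*-WT mice and 2.55, 2.19, 1.78 and 1.57 CPM in the *Atm*-KO mice, in the same order of mice. The genotypes did not overlap, but *Atm*-WT mouse 7M and *Atm*-KO mouse 1M came close to each other. The mean went from 3.70 ± 0.876 to 2.02 ± 0.436 CPM, or 54.7% of the *Atm*-WT level (log2 fold change −0.87, standard error 0.22, adjusted p = 0.102 in edgeR and 0.00388 in DESeq2). This was the largest fitted difference of the 10 genes. Of its 2044 exon bases 1241 are shared with the long non-coding RNA *Gm48529* and 123 with *Pcsk7*, both on the opposite strand. These had log2 fold changes of 0.25 (standard error 0.23) and 0.17 (standard error 0.08), and as the sources used here do not say whether strand was counted, their reads cannot be told apart from those of *Tagln* over the shared bases.

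*Myh11* encodes the smooth muscle myosin heavy chain, the most specific marker of mature smooth muscle. *Atm*-WT mice had 11.97, 8.09, 10.2 and 8.70 CPM, and *Atm*-KO mice 7.34, 8.17, 7.38 and 4.69 CPM. Only *Atm*-KO mouse 7F overlapped the *Atm*-WT range, by lying just above mouse 7M of that genotype. Its fitted log2 fold change was −0.50 (standard error 0.18, adjusted p = 0.168 in edgeR and 0.0559 in DESeq2). *Myl9*, the regulatory light chain of the same myosin, had 6.20, 3.33, 3.54 and 4.55 CPM in *Atm*-WT mice and 3.60, 4.35, 3.12 and 2.37 CPM in the others. Its high *Atm*-WT mean rested in large part on mouse 2M, and its log2 fold change of −0.39 (edgeR adjusted p = 0.377, standard error 0.24) became −0.18 without that mouse, and −0.26 without *Atm*-KO mouse 12M.

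*Cnn1* encodes calponin, an inhibitor of the myosin ATPase found in differentiated smooth muscle. Its raw counts were 30, 6, 38 and 28 in *Atm*-WT mice, against 30, 30, 27 and 10 in *Atm*-KO mice. Values within each genotype ranged more widely than any difference between them, with *Atm*-WT mouse 7M and *Atm*-KO mouse 12M at the bottom. The log2 fold change was 0.01 with a 95% interval from −1.07 to 1.08 (standard error 0.49, adjusted p = 0.996 in edgeR), and its sign turned in 4 of the 8 fits that leave out a mouse, to −0.31 without *Atm*-WT mouse 7M. This interval holds the fitted value of *Acta2* as well as 0, so that *Cnn1* shows neither a difference nor its absence. *Cnn1* also shares 961 of its 2736 exon bases with *Elof1* on the opposite strand, which had 22.8 ± 2.05 CPM in *Atm*-WT cerebella.

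The promoters of *Acta2* and *Myl9* are shown because SRF acts on contractile genes through the CArG box, a run of CC, 6 bases of A or T, and GG, whose sequence reads the same in form on both strands. RefSeq promoter windows on GRCm38.p6, from 250 bases before to 50 after the start, were at hand for 7 of the 10 genes and not for *Pdgfrb*, *Tagln* and *Myh11*. A full CArG box was in 1.63% of all 32851 windows, and a box in which 1 of the 6 core bases may be C or G, a looser form used because the known boxes of *Acta2* are of this kind, was in 9.98%. Capitals mark the box in these stretches, each read 5′ to 3′ on the strand of the gene.
Acta2, box from 84 bases before the start, chr19:34255438-34255467, minus strand: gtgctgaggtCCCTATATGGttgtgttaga
Acta2, box from 34 bases before the start, chr19:34255388-34255417, minus strand: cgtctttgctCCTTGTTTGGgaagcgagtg
Myl9, box from 161 bases before the start, chr2:156775293-156775322, plus strand: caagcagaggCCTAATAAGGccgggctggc
Myl9, box from 99 bases before the start, chr2:156775355-156775384, plus strand: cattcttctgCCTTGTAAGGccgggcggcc

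Both boxes of *Acta2* were of the looser form, and *Myl9* held a full box and a looser one. *Cnn1* and the 4 pericyte genes with a window (*Rgs5*, *Kcnj8*, *Abcc9* and *Vtn*) had neither form in these 300 bases, which says nothing of boxes further away. *Vtn* had the letters TATAAA before its start, as did 7.59% of all windows.

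**Figure D2:**
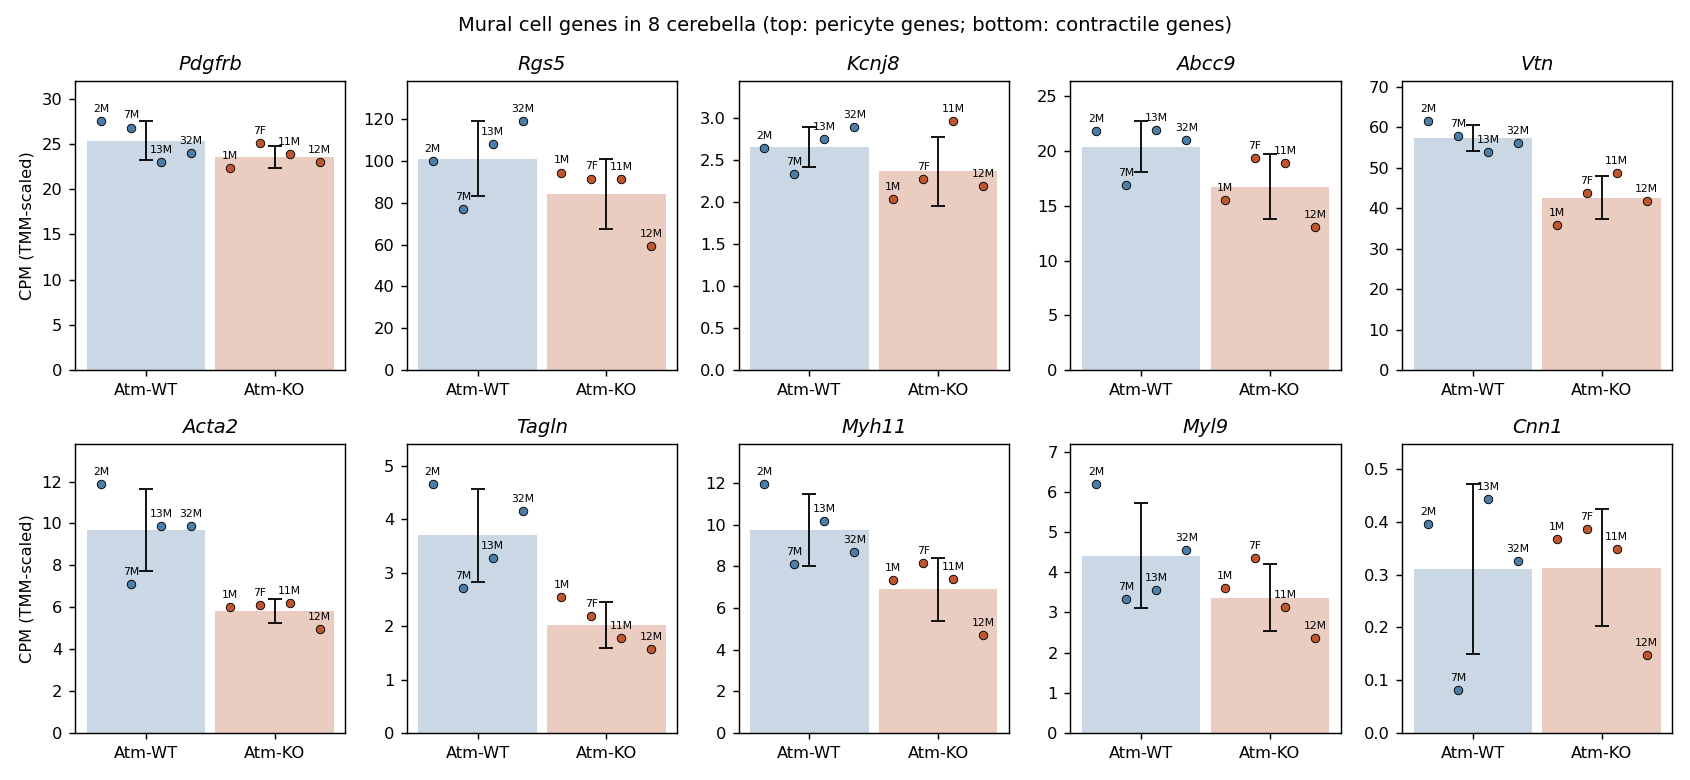
CPM of the 10 mural cell genes in each mouse (points, named by their label), with the mean (bar) and SD (line) of 4 mice per genotype, pericyte genes above and contractile genes below. All 4 *Atm*-KO points lie under all *Atm*-WT points for *Vtn*, *Acta2* and *Tagln*, whereas the genotypes overlap for the remaining genes.

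*Vtn* was the pericyte gene without overlap between genotypes. It lies on chromosome 11 from 78388717 to 78393156. Its values were 61.6, 57.7, 53.9 and 56.2 CPM in the *Atm*-WT mice and 36.0, 43.9, 48.7 and 41.8 CPM in the *Atm*-KO mice. No value overlapped, and mouse 1M was the lowest. *Atm*-KO cerebella held 74.3% of the *Atm*-WT level (57.4 ± 3.23 against 42.6 ± 5.30 CPM), and the log2 fold change was −0.43 ± 0.09 (standard error) with adjusted p = 0.0931 in edgeR and 0.00282 in DESeq2. It had the smallest standard deviation relative to its mean of the 10 genes in *Atm*-WT mice, 5.64%.

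*Pdgfrb*, the receptor through which pericytes are recruited, had overlapping values. *Atm*-WT mice had 27.5, 26.8, 23.0 and 24.0 CPM, and *Atm*-KO mice 22.3, 25.0, 23.8 and 23.0 CPM. Both ranges lay close together, and the log2 fold change of −0.11 (edgeR adjusted p = 0.496, standard error 0.08) had a 95% interval from −0.29 to 0.07, which leaves out the fitted value of *Vtn*. It was −0.065 without *Atm*-WT mouse 2M. Within a library the ratio of *Vtn* to *Pdgfrb* was 2.15 to 2.34 in *Atm*-WT mice, against 1.61 to 2.05 in *Atm*-KO mice, without overlap. The ratio of *Acta2* to *Pdgfrb* was 0.265 to 0.432 and 0.215 to 0.269, and that of *Rgs5* to *Pdgfrb* 2.87 to 4.95 and 2.58 to 4.22, both with overlap.

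*Rgs5* was the most abundant of the 10 genes in CPM. *Atm*-WT mice had 99.7, 77.0, 108 and 119 CPM and *Atm*-KO mice 94.4, 91.5, 91.2 and 59.2 CPM. The genotypes overlapped through *Atm*-WT mouse 7M, and 3 of the 4 *Atm*-KO mice were nearly equal while mouse 12M was far below them. The log2 fold change was −0.26 (standard error 0.16, adjusted p = 0.360 in edgeR), with a 95% interval from −0.60 to 0.08, and it was −0.13 without *Atm*-KO mouse 12M and −0.073 with a surrogate variable. Under the latter setting *Abcc9*, *Kcnj8* and *Myl9* also came closer to 0, at −0.16, −0.092 and −0.22.

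*Kcnj8* and *Abcc9* encode the pore Kir6.1 and the regulatory subunit SUR2 of the ATP-sensitive potassium channel of mural cells, which links their membrane potential to energy supply, and the 2 genes lie 15.8 kb apart on chromosome 6. *Abcc9* stood at 21.8, 16.9, 21.9 and 21.0 CPM in *Atm*-WT mice and at 15.6, 19.4, 18.9 and 13.1 CPM in *Atm*-KO mice. *Kcnj8* stood at 2.64, 2.34, 2.75 and 2.89 CPM and at 2.03, 2.27, 2.97 and 2.19 CPM in the same order. In *Abcc9* the *Atm*-KO mice were below 3 of the 4 *Atm*-WT mice. In *Kcnj8* the highest value of all belonged to *Atm*-KO mouse 11M, while the other *Atm*-KO mice lay below every *Atm*-WT mouse. The log2 fold changes were −0.29 (standard error 0.13, adjusted p = 0.254 in edgeR, −0.19 without *Atm*-KO mouse 12M) and −0.17 (standard error 0.18, adjusted p = 0.633, 95% interval −0.56 to 0.22, −0.10 without *Atm*-KO mouse 1M and −0.28 without 11M).

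**Figure D3:**
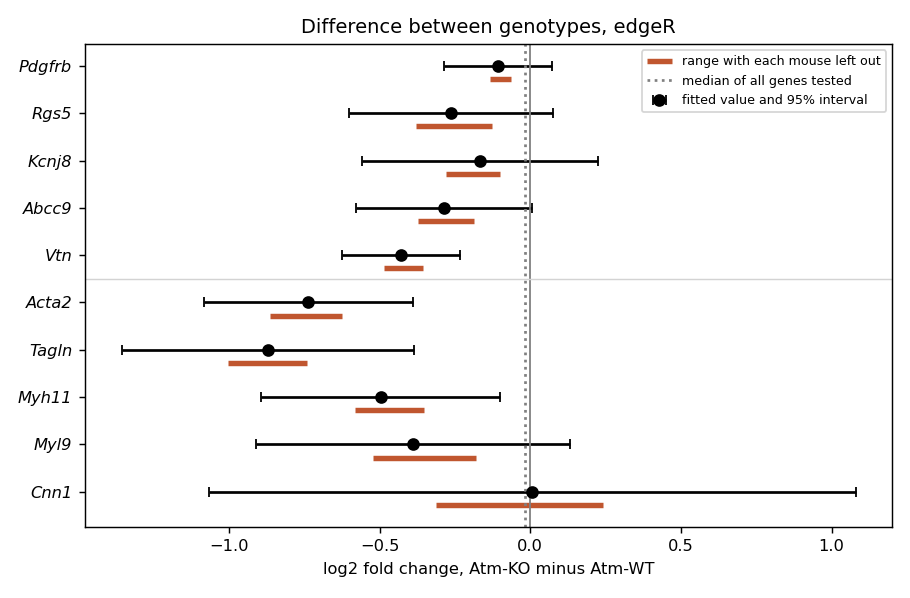
Fitted log2 fold change of each gene, *Atm*-KO minus *Atm*-WT, with its 95% interval (black, edgeR, not adjusted for the number of genes) and the range of the value when each mouse is left out in turn (orange). Intervals of *Vtn*, *Acta2*, *Tagln* and *Myh11* lie below 0, and the range of *Cnn1* spans it.

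The highest and lowest values were then counted by mouse. *Atm*-WT mouse 2M had the highest value of all 8 mice in 6 genes (*Pdgfrb*, *Vtn*, *Acta2*, *Tagln*, *Myh11* and *Myl9*). *Atm*-WT mouse 7M had the lowest value of its genotype in 8 genes, the exceptions being *Pdgfrb* and *Vtn*. *Atm*-KO mouse 12M, which had the smallest library, was the lowest of all 8 mice in 6 genes (*Rgs5*, *Abcc9*, *Acta2*, *Tagln*, *Myh11* and *Myl9*). Without *Atm*-KO mouse 12M the median log2 fold change of the 10 genes was −0.22 in place of −0.34, and *Acta2*, *Tagln* and *Vtn* stood at −0.67, −0.77 and −0.42. Without *Atm*-WT mouse 7M, the lowest of its genotype in 8 of the genes, it was −0.41, and 6 genes did not overlap (*Rgs5*, *Abcc9* and *Myh11* besides the 3), where 8.43% of all genes were lower without overlap among these 7 mice. *Atm*-KO mouse 7F was the highest *Atm*-KO mouse in 5 genes and the lowest in 0.

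The summed CPM of the 5 contractile genes was 21.3 to 35.1 in *Atm*-WT mice, against 13.7 to 21.2 in *Atm*-KO mice, which did not overlap although *Atm*-WT mouse 7M and *Atm*-KO mouse 7F were nearly equal. That of the 5 pericyte genes was 181 to 223 and 139 to 186, with overlap. The first sum over the second was 0.118 to 0.165 in *Atm*-WT mice, against 0.0985 to 0.117 in *Atm*-KO mice. These ratios are a description and were not tested.

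**Figure D4:**
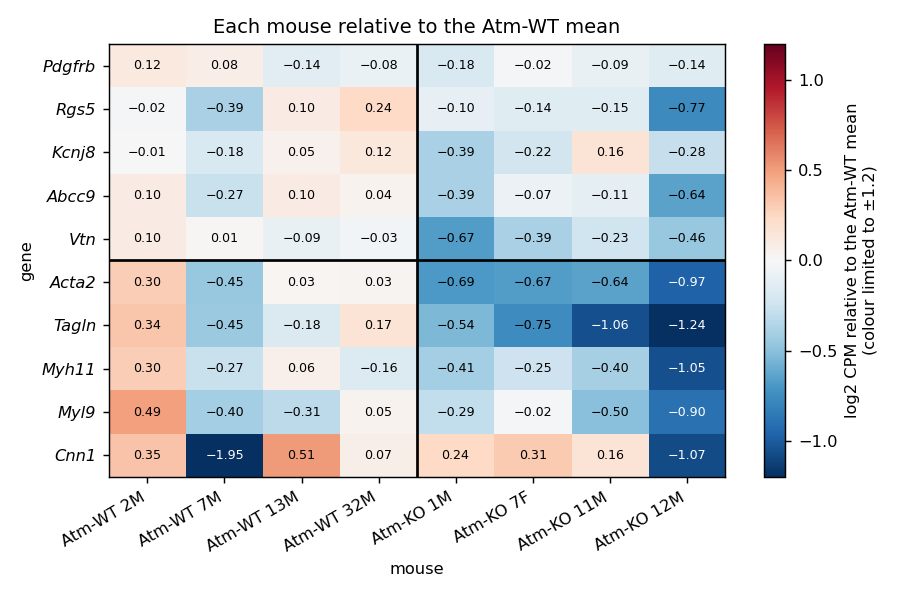
log2 CPM of each gene in each mouse relative to the mean of the *Atm*-WT mice, pericyte genes above and contractile genes below the line. *Atm*-KO mouse 12M is low in most rows and *Atm*-WT mouse 7M in most rows of its genotype, with *Pdgfrb* and *Vtn* as its exceptions.

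Further markers of pericytes and of smooth muscle had medians closer to 0 than the 10 genes. Of all genes tested, 8.48% were lower and 11.7% higher at an unadjusted p under 0.05, 5.12% were lower and 6.47% higher without overlap, and DESeq2 called 2.44% lower and 5.05% higher, against which the counts of each list can be read. Of 12 other pericyte genes, 8 were lower and 4 higher, with a median log2 fold change of −0.15, 1 lower and 1 higher at an unadjusted p under 0.05 and 0 called by edgeR (DESeq2 called 1). *Notch3*, the receptor by which mural cells read endothelial Notch ligands, had 28.9 ± 1.66 and 24.3 ± 2.65 CPM (edgeR adjusted p = 0.166 for a log2 fold change of −0.25 with standard error 0.09). *Mcam*, an adhesion molecule of pericytes and also of endothelium, lay the other way, at 33.0 ± 3.25 and 40.2 ± 0.753 CPM without overlap (adjusted p = 0.110 in edgeR and 0.0346 in DESeq2 for a log2 fold change of 0.28 with standard error 0.08). *Cspg4*, the proteoglycan NG2, had a log2 fold change of −0.17 (standard error 0.10).

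Of 18 other smooth muscle genes 17 were tested, *Actg2* being too low, and 12 were lower and 5 higher, with a median of −0.095, 2 lower at an unadjusted p under 0.05 and 0 called by edgeR (DESeq2 called 1). *Csrp1*, a LIM domain protein, and *Mylk*, the kinase that switches on smooth muscle myosin, had log2 fold changes of −0.22 (standard error 0.10) and −0.29 (standard error 0.14), and *Flna*, an actin crosslinker of many cell types, 0.21 (standard error 0.12). *Lmod1*, an actin nucleator of smooth muscle, was named only after its values were seen. *Atm*-WT mice had 0.897, 0.833, 1.03 and 0.676 CPM, and *Atm*-KO mice 0.392, 0.310, 0.438 and 0.533 CPM, without overlap (log2 fold change −1.04, standard error 0.27, adjusted p = 0.106 in edgeR and 0.0215 in DESeq2). Many genes of this list are also made by other cells of the cerebellum.

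Of 8 regulators of the mural programme 7 were lower, with a median of −0.19, 1 at an unadjusted p under 0.05 and 0 called by edgeR. *Srf* itself had 15.2 ± 2.34 and 13.4 ± 0.663 CPM (edgeR adjusted p = 0.387 for a log2 fold change of −0.18 with standard error 0.11) and its coactivator *Mrtfb* 110 ± 10.1 and 96.5 ± 11.6 CPM (log2 fold change −0.19, standard error 0.09). *Klf4*, which encodes a factor known to hold down the contractile genes and which endothelium and other cells make too, had a larger fitted difference than any of the 10 genes, at 10.5 ± 2.04 and 5.26 ± 0.575 CPM without overlap (adjusted p = 0.0775 in edgeR and 2.5e-07 in DESeq2 for a log2 fold change of −0.99 with standard error 0.15).

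Genes of pathways that act on mural cells were followed in 4 lists. In whole cerebellum their RNA can come from other cells too, so these values do not measure signals to mural cells. All 5 genes of the PDGF list were lower, with a median of −0.18 and 1 of them at an unadjusted p under 0.05. This was *Pdgfd*, a ligand of PDGFRB, with 20.8 ± 0.746 and 16.6 ± 1.85 CPM and no overlap (log2 fold change −0.32, standard error 0.09, adjusted p = 0.116 in edgeR and 0.0295 in DESeq2), while *Pdgfa* and *Pdgfc* had −0.18 and −0.21. All 7 Notch genes were lower, with a median of −0.19 and *Notch3* alone at an unadjusted p under 0.05, and *Jag1* and *Hey1*, a ligand and a target of the pathway, had −0.21 and −0.15. Of 11 genes of TGF-beta signalling 10 were lower, with a median of −0.19 and 4 at an unadjusted p under 0.05. *Tgfb3* and *Tgfb1*, ligands that promote the contractile state, did not overlap between genotypes (log2 fold changes −0.27 and −0.40, standard errors 0.07 and 0.15, adjusted p = 0.105 and 0.172 in edgeR), and the receptor *Tgfbr1* had −0.19. Of 11 receptors and effectors of vascular tone tested, *Agtr1a* being too low, 8 were lower, with a median of −0.09 and 2 at an unadjusted p under 0.05, *Ednrb* and *Gucy1a1*, with log2 fold changes of −0.15 and −0.16. *Gucy1b1*, the partner of *Gucy1a1* in the nitric oxide receptor, had −0.09. In these 4 lists edgeR called 0 genes and DESeq2 called 2, *Pdgfd* and *Tgfb3*.

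Relatives of the 10 genes were listed beside them because they share protein families with them, and many are made by other cells too. The non-muscle actins *Actb* and *Actg1* stood at 2328 ± 101 and 498 ± 12.2 TPM in *Atm*-WT cerebella, far above *Acta2*, and were lower in every *Atm*-KO than in every *Atm*-WT mouse, with log2 fold changes of −0.33 (standard error 0.07) and −0.27 (standard error 0.07). Non-muscle myosins were well above *Myh11* at 239 ± 33.1 TPM for *Myh10* and 80.1 ± 15.4 TPM for *Myh9*, with log2 fold changes of 0.03 (standard error 0.10) and −0.05 (standard error 0.11). *Tagln2* and *Cnn3* did not overlap between genotypes and had −0.40 and −0.31, while *Tagln3*, a neuronal form, had −0.11. Of the muscle actins closest to *Acta2*, *Actg2* and *Actc1* had at most 18 and 2 counts in any library and *Acta1* from 10 to 100 counts, against 334 to 902 counts of *Acta2*. *Acta1* had a log2 fold change of 0.90 (standard error 0.50), and how reads shared by these genes were counted is not known.

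The other form of the ATP-sensitive channel was measured as well. *Abcc8*, the SUR1 subunit of neurons, had 41.6 ± 5.60 CPM in *Atm*-WT cerebella and 65.2 ± 9.68 CPM in the *Atm*-KO ones, without overlap (log2 fold change 0.65, standard error 0.12, adjusted p = 0.0931 in edgeR and 0.000242 in DESeq2), where DESeq2 called 5.05% of all genes higher. Its partner *Kcnj11* (Kir6.2) had a log2 fold change of 0.06 (standard error 0.06), against −0.29 for *Abcc9* and −0.17 for *Kcnj8*, and the difference between the channel forms was not tested. Of the 18 relatives tested 13 were lower and 5 higher, with a median of −0.18, 6 lower and 1 higher at an unadjusted p under 0.05 and 0 called by edgeR (DESeq2 called 5 lower and 1 higher).

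Markers of other cells were measured beside the mural genes. Of 13 endothelial markers 9 were lower, with a median log2 fold change of −0.21 and 4 at an unadjusted p under 0.05, and their summed CPM was 460 to 497 in *Atm*-WT mice, against 352 to 437 in *Atm*-KO mice, without overlap. *Pecam1* (−0.42), *Abcb1a* (−0.31) and the glucose transporter *Slc2a1* (−0.68) did not overlap, and 4 of the 13 were higher. Of 10 meningeal fibroblast markers, cells that also carry *Pdgfrb*, 7 were lower with a median of −0.23 and 2 at an unadjusted p under 0.05 (*Dcn*, −0.47, and *Fmod*, −0.32), and their sum was 164 to 201 and 136 to 182 CPM. *Igf2* of the same list had −0.64 (standard error 0.30). Sums of choroid plexus markers, 773 to 1547 and 421 to 1202 CPM, overlapped, and their 6 genes had a median of −0.60 with 3 at an unadjusted p under 0.05. Sums of red blood cell markers, 5.87 to 42.9 and 7.80 to 49.5 CPM, overlapped widely, and 0 of these 5 genes, all higher with a median of 0.61, passed an unadjusted p under 0.05.

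Glial and neuronal lists were counted in the same way. All 6 microglia markers were lower, with a median of −0.34 and 4 at an unadjusted p under 0.05, and so were all 6 astrocyte markers (median −0.20, 3 at that level) and all 6 oligodendrocyte markers (median −0.23, 3 at that level). Oligodendrocyte markers summed to 1926 CPM in *Atm*-KO mouse 12M, against 3056 to 3287 CPM in the other *Atm*-KO mice, so that this mouse was low in that list as well as in 6 mural genes. It also had the lowest sums of all 8 mice for endothelial (352 CPM) and microglia markers (101 CPM) and the highest for granule cell markers, 3934 CPM against 3115 to 3139 CPM in the other *Atm*-KO mice. Purkinje cell markers had a median of −0.09 with 5 of 6 lower and 1 at an unadjusted p under 0.05, and granule cell markers a median of −0.01 with 3 of 6 lower and 0 at that level. In all these lists of other cells edgeR called 0 genes, and DESeq2 called 2 endothelial, 1 fibroblast, 2 astrocyte and 3 microglia genes. No list held a gene at 0 in every library.

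**Figure D5:**
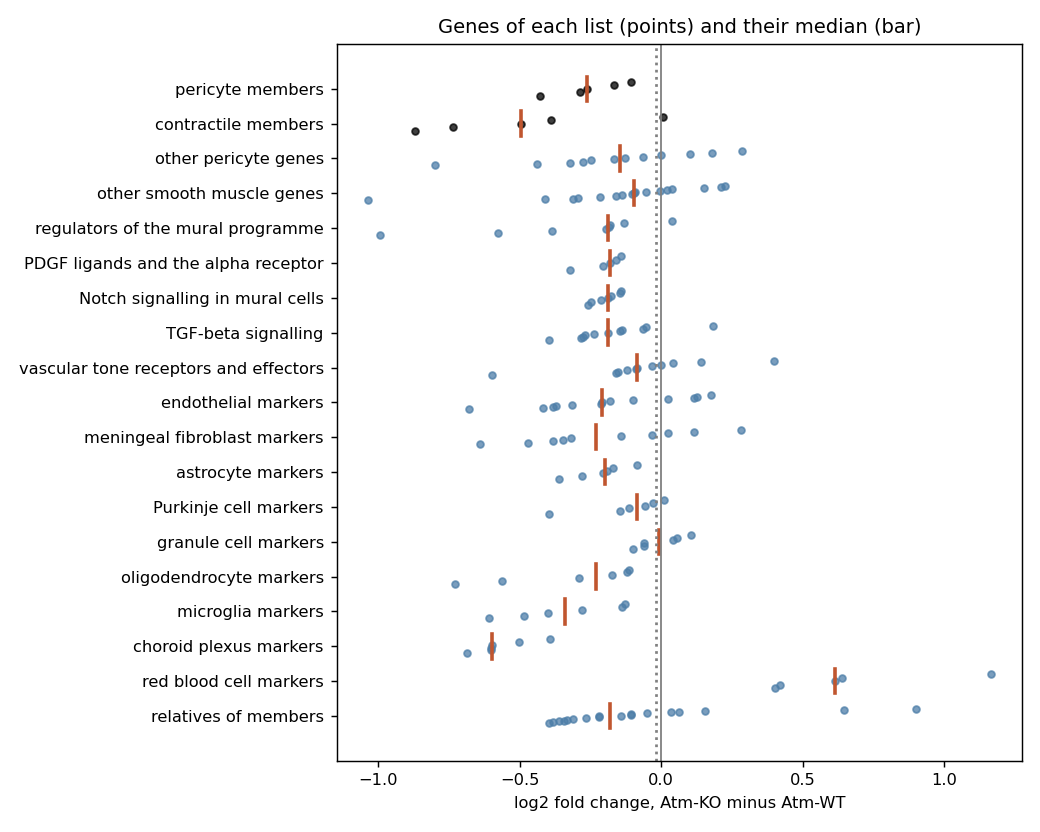
log2 fold change, *Atm*-KO minus *Atm*-WT, of every tested gene of each list (points, the 10 mural cell genes in black) with the median of the list (bar) and that of all genes tested (dotted line at −0.018). Contractile genes have a median of −0.50, and choroid plexus markers of −0.60.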

How the data were processed

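RNA of frozen cerebella was sequenced at Novogene on an Illumina HiSeq instrument. The authors checked reads with FastQC 0.11.9, aligned them with STAR to GRCm39 with GENCODE annotation, counted them per gene with featureCounts and deposited the raw counts. How strand and read pairs were handled in counting is not given in the sources used here. Identifiers were matched without version to GENCODE vM39 on GRCm39 (56017, 98.8%), which gave symbols, positions and exon lengths.

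Each library is 1 mouse, grouped by its label. Genotypes were compared on the whole table with edgeR 4.0.16 in R 4.3.3 (filterByExpr, TMM, glmQLFit and glmQLFTest, Benjamini-Hochberg adjustment, no covariate), and a call is an adjusted p under 0.05. DESeq2 1.42.0, limma voom 3.58.1, a surrogate variable of sva 3.50.0, other scalings and filters, halved counts (67.3 to 73.3% of counts from 1 to 50 were even, so that a read pair may count as 2) and each mouse left out were alternatives. The edgeR and limma voom fits were tested on simulated data in which every gene had the same dispersion (scatter between libraries). With the lowest total at 65967130 counts, 1 CPM stood for over 65 counts. Other genes were named where called or among the 3 smallest p of a list at a mean of 1 CPM or more, with any relative of the 10 genes and *Lmod1* besides. Lists were written by hand, and the 10 genes and all lists were chosen with earlier results of these data known.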

Additional observations from a re-analysis of the deposited data

Results flagged for a closer look

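Values were examined for a mouse far from the other 3 of its genotype, with Dixon's test for 4 values, which sets the distance to the nearest mouse against the spread of all 4 (95% level). Of 20 groups tested, 10 genes in each genotype, 3 held such a value, where chance gives about 1 if groups are independent. Genes measured in the same mice are not, so these counts cannot be compared directly. All 3 were low values of *Atm*-KO mouse 12M. It had 59.2 CPM of *Rgs5* against 91.2 to 94.4 in the other *Atm*-KO mice, 4.94 CPM of *Acta2* against 6.01 to 6.20, and 0.148 CPM of *Cnn1* against 0.348 to 0.387. This mouse also had the smallest library and, of all 8 mice, the lowest sums of oligodendrocyte (1926 CPM), endothelial (352 CPM) and microglia markers (101 CPM) and the highest of granule cell markers (3934 CPM). The part of these in the 3 values was not tested.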

How the results depend on the processing

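Of the 10 genes, *Acta2*, *Tagln*, *Vtn*, *Myh11*, *Abcc9*, *Rgs5*, *Myl9*, *Kcnj8* and *Pdgfrb* stayed lower under all 16 alternatives. *Cnn1* turned to −0.31 without *Atm*-WT mouse 7M and to −0.079, −0.093 and −0.035 without *Atm*-KO mice 1M, 7F and 11M. It reached 0.24 without *Atm*-WT mouse 13M and 0.26 with a surrogate variable. It had 15 alternatives, as it failed the filter of at least 10 counts in every library. DESeq2 and edgeR without a filter on low counts each called 3 of the 10 (*Vtn*, *Acta2* and *Tagln*), where they called 1552 and 591 genes in all and the filtered edgeR fit 4. With a surrogate variable edgeR called 15 genes in all, and with a mouse left out 1 to 27 (27 without *Atm*-WT mouse 13M). An adjusted p of 0.1, chosen after seeing the data, takes in 2 of the 10 (*Vtn* and *Acta2*). DESeq2 called 19 of the 150 genes of the other lists, against 7.49% of all genes, and edgeR 0. With a surrogate variable the median of the pericyte genes was −0.094 and that of all 10 genes −0.19. With each mouse left out, edgeR called 0 of the 10 throughout. In these fits 3 to 6 had an unadjusted p under 0.05, where 8.48% of all genes were lower at that level with no mouse left out. Between genotypes 3 to 6 did not overlap, where 6.12% to 8.43% of all genes were lower without overlap in these fits. The median ranged from −0.41 to −0.22 over the 10 genes, from −0.37 to −0.13 over the pericyte genes (−0.13 without *Atm*-KO mouse 12M) and from −0.58 to −0.35 over the contractile genes. The adjusted p of *Acta2* ranged from 0.000708 to 0.293, that of *Vtn* from 0.00282 to 0.293 and that of *Tagln* from 0.00388 to 0.293. Library size alone moved the median of all genes from −0.018 to 0.031 and left 2 of the 10 without overlap, where 2.64% of all genes were lower without overlap. No paired analysis was possible because the genotypes share only 1 number in the labels, which names animals. Causes were not tested. *Cnn1* had 6 to 38 counts, and its standard error was 0.49, or 0.46 with halved counts.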
